A study of Mus musculus with 9 samples.

Results

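Kinesins are motor proteins that couple ATP hydrolysis to movement along microtubules, and 41 genes of the family, of 18193 named genes on the array, were followed here in spermatogonia preparations of mice made deficient in vitamin A by diet (VAD, as the labels abbreviate it). The members are the probe sets of an Affymetrix mouse array that the platform annotation assigns to a single gene whose symbol is Kif or Kifc followed by a number and at most a letter. There were 104 such probe sets among 45101, and 76 of them, covering 38 genes, passed the filter on low signal. Kif15, Kif26a and Kif28 had no probe set above it, and 1 further probe set names a kinesin together with another gene and was left out.

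The animals were adult Balb/C mice. The 3 groups of 3 arrays came from mice on the VAD diet for 25 weeks, mice on the VAD diet for 18 weeks, and mice on the normal diet, whose age is not given. Per the labels, the testes of 2 mice were dissociated for each isolation, the cells were kept overnight in culture, and the floating germ cells were then sorted by how they settled through albumin, with a purity of spermatogonia that the submitters state as over 90%. Nothing says whether the arrays of a group are separate preparations, so every error below measures only the spread between these samples, and their number limits the precision.

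The array labelled VAD 25 weeks replicate 3 and the control array replicate 3, called the dim pair here, stood apart, with trimmed mean signals of 22.9 to 23.2 against 55.2 to 185 on the other 7 arrays and a correlation with those of 0.776 to 0.809. VAD 25 weeks replicates 1 and 2 also differed from all other arrays, since their poly-A control transcripts were over 10 times the median. The labelled cell type was set against marker genes. Of 10 markers of undifferentiated spermatogonia on the array, Pou5f1, Ret, Lin28a and Sall4 were below the filter, while all 9 markers of differentiating spermatogonia, all 12 of spermatocytes and all 14 of spermatids were above it.

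Mitotic kinesins build the bipolar spindle, move chromosomes and complete cytokinesis, and in the testis they serve the divisions of spermatogonia and of meiosis. Ciliary kinesins carry cargo along the axoneme or set its length, which in this tissue concerns the sperm flagellum. Transport kinesins haul vesicles and organelles, best known from axons. The 41 genes were divided into 14 mitotic, 14 transport, 8 ciliary and 5 other kinesins.

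RefSeq promoters (build GRCm38.p6, from 250 bases before to 50 bases after the annotated start) were found for 33 of the 41 genes. The promoters below belong to the 4 mitotic kinesins that were lower at 25 weeks and to 2 further kinesins, Kif17, which was lower, and Kif5c, which was higher. They were picked with their letters known, to show elements that the 4 mitotic promoters share and the other pair lacks. Of the other kinesins with a called probe set, whose promoters are not printed, Kif9 held none of the marked letters, and Kif3a and Kif3b held CCAAT. Capitals mark TTTGAA (the cell cycle genes homology region, where it functions), CCAAT (the letters read by the factor NF-Y) and TGACGT (most of the cyclic AMP response element), each on either strand.
Kif18b, chr11:102925075-102925374, minus strand: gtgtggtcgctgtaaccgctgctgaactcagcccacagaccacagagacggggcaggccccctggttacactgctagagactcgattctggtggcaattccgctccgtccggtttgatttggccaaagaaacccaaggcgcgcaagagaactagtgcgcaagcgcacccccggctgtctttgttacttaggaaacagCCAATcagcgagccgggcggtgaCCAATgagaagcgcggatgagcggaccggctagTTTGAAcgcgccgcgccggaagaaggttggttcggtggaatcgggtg
Kif22, chr7:127042371-127042670, minus strand: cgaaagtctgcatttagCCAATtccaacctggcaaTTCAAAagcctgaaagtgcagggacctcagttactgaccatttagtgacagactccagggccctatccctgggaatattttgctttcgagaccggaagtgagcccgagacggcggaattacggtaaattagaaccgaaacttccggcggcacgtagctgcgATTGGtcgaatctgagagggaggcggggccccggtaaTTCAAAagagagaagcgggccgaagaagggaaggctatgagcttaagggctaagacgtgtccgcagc
Kif23, chr9:61946750-61947049, minus strand: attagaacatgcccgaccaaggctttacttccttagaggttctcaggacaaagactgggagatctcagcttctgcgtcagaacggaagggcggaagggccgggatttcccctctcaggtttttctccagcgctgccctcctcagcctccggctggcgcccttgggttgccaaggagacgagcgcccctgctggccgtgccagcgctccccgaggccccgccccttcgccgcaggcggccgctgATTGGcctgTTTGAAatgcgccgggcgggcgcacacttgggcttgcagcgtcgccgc
Kifc1, chr17:33890584-33890883, minus strand: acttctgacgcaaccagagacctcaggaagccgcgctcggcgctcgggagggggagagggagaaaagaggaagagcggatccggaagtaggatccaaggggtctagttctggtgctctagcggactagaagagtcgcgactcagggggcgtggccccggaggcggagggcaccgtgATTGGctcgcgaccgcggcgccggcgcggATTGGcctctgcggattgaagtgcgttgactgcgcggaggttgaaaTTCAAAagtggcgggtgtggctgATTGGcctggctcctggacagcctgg
Kif17, chr4:138262001-138262300, plus strand: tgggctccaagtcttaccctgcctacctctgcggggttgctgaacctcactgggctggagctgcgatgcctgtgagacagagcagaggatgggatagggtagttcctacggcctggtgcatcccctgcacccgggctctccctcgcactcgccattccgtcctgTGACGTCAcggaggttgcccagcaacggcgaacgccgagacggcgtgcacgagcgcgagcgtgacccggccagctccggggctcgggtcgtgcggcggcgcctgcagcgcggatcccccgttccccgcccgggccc
Kif5c, chr2:49619036-49619335, plus strand: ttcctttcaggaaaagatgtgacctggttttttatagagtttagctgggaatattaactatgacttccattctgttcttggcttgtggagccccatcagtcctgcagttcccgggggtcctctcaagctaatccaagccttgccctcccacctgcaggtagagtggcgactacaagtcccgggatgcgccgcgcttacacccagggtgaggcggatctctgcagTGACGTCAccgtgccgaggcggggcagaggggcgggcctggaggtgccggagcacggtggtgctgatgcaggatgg

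Of the 13 mitotic kinesins with a promoter entry, 11 held TTTGAA, against 0 of 8 transport kinesins, 1 of 8 ciliary kinesins (Kif27), 1 of 4 others (Kif26b) and 18.1% of 27025 promoters of all genes. Both TTTGAA and CCAAT were present in 8 of the 13 mitotic kinesins and in 7.12% of all promoters. All 4 mitotic promoters printed above hold both, with the match nearest to the start at position 3 in Kif18b, 2 in Kif23, 1 in Kifc1 and -17 in Kif22 (counted from the annotated start, reverse strand in Kifc1 and Kif22). The promoters of Kif11, Kif14, Kif4 and Kifc5b hold the same pair of letters, and none of those 4 genes passed the test of expression described below. Kif17 and Kif5c, together with the mitotic Kif18a, hold the palindrome TGACGTCA, which 1.88% of all promoters hold and in which the matches to TGACGT on the 2 strands overlap. The letters TTCGAA and GGGCGG were also searched and were in 1 and 21 of the 33 kinesin promoters, against 1.57% and 35.9% of all. A match describes these letters and does not show a bound site.

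All levels below are log2 signals after quantile normalization, and a gene is represented by its brightest probe set among those least open to binding several transcripts. In 7 genes (Kif11, Kif16b, Kif1b, Kif20b, Kif22, Kif2c and Kif6) a set of the more open kind was brighter than the one used, and in 0 of the 7 was that brighter set called at 25 weeks. A probe set is called when limma, fitted to all 9 arrays with the dim pair as a block, gives an adjusted p under 0.05. At 25 weeks 12 of the 76 kinesin probe sets were called, which is 15.8% against 14.9% of all probe sets, so the family as a whole was called about as often as the rest of the array. Of these, 9 were lower (11.8%, against 6.32% of all probe sets) and 3 were higher (3.95%, against 8.54%). This balance depends on the scaling, since 5 kinesin probe sets were higher and 3 lower with median centring (2800 and 817 of all), and 19 were higher and 0 lower on the deposited scale (10571 and 7 of all). The lower ones belonged to the mitotic kinesins Kif18b, Kif22, Kif23 and Kifc1 and the ciliary kinesins Kif17, Kif3b and Kif9, and the higher ones to Kif3a and Kif5c. With the replicate number as a further block 2 kinesin probe sets were higher and 6 lower. With group as the sole term limma called 0 kinesin probe sets and 0% of the array at 25 weeks. There limma gave an unadjusted p under 0.05 for 11 of the 76 kinesin probe sets and for 3209 of all 27022. Without the dim pair it called 18 kinesin probe sets (23.7%, against 15.6% of all), 15 of them lower (19.7%, against 6.74%) and 3 higher (3.95%, against 8.9%). At 25 weeks 9 kinesin probe sets (11.8%, against 7.11% of all) lay below the controls on every array and 5 lay above them (6.58%, against 9.13%).

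At 18 weeks limma called 0 of the 76 kinesin probe sets, against 1.47% of all probe sets (1.33% higher and 0.133% lower). Its unadjusted p was under 0.05 for 21 of the 76 kinesin probe sets and for 4460 of all 27022. On every 18-week array 16 kinesin probe sets (21.1%, against 7.6% of all) lay below the controls and 4 (5.26%, against 11.8%) lay above them. Without the dim pair 2 were called, both lower (2.63%), against 3.99% of all (3.18% higher and 0.807% lower). These were a Kif22 probe set that can bind several transcripts (-0.50, limma adjusted p = 0.0424) and a probe set of Kif1b (-0.70, limma adjusted p = 0.0388). The 18-week and 25-week comparisons share their control arrays. The dim-pair term is also estimated in part from a 25-week array, so 18-week changes with the block draw on that array too. Values of the 18-week and 25-week comparisons are therefore given side by side below, and their likeness is not a result. In bulk samples fewer cells of a type and less RNA per cell cannot be told apart.

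**Figure D1:**
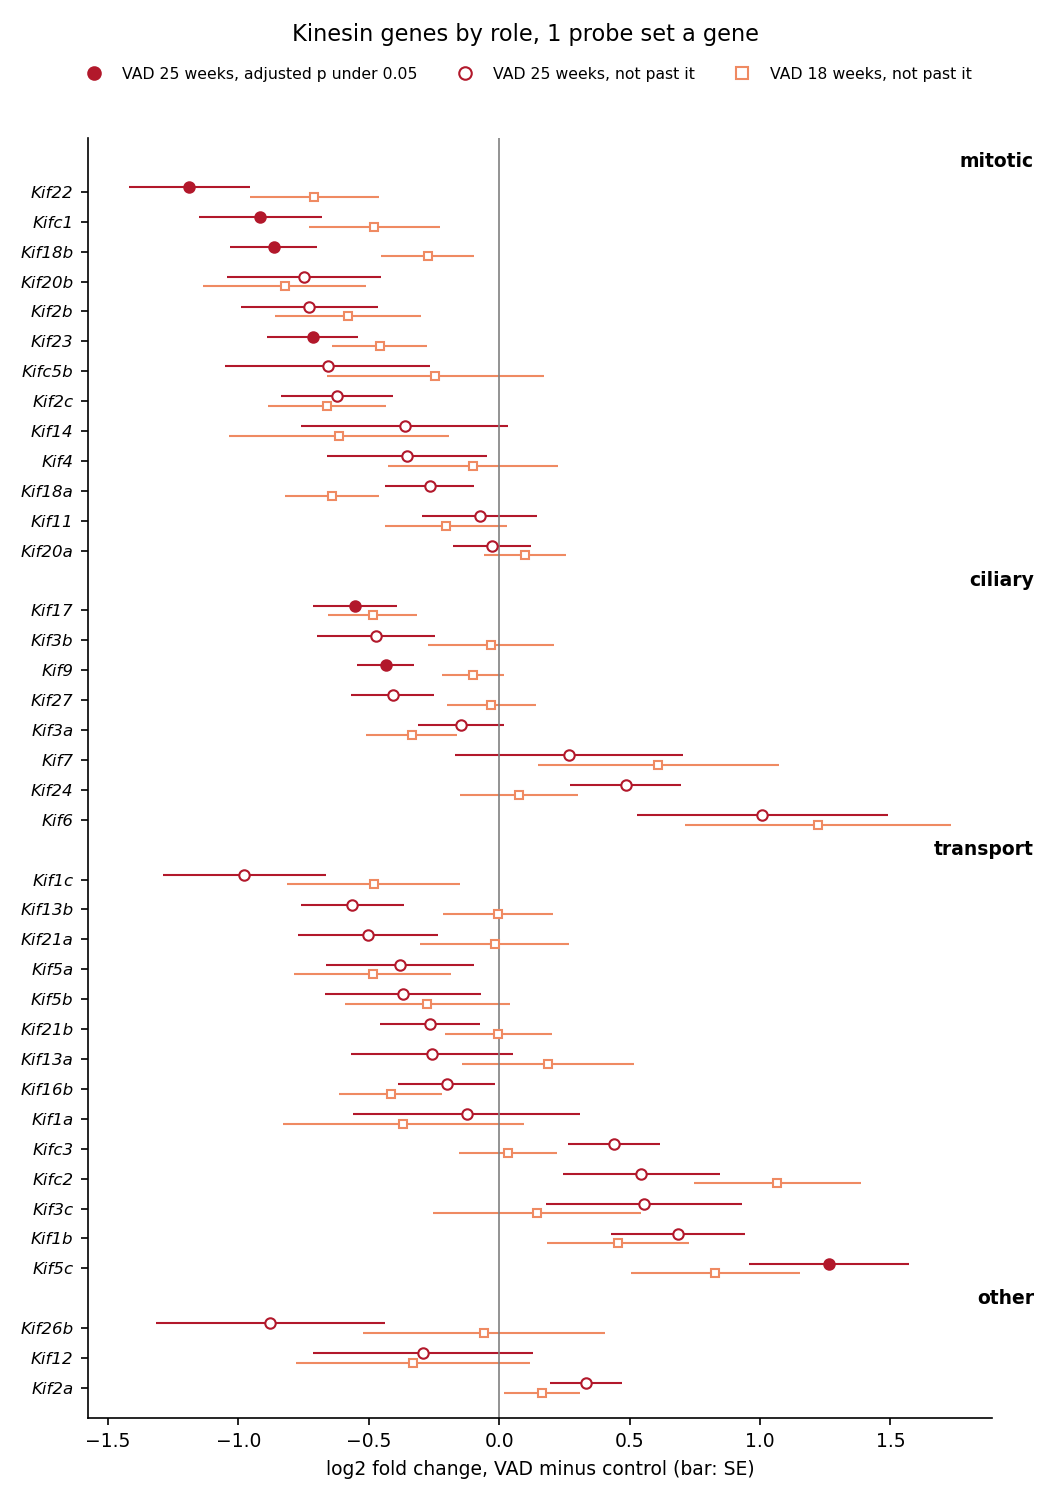
Log2 fold change of the 38 kinesin genes in VAD against control, by role, with circles for 25 weeks and squares for 18 weeks and bars for the standard error (n = 3 arrays per group). Filled circles mark the 7 genes past the threshold at 25 weeks, and all 13 mitotic kinesins lie left of 0 there.

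All 13 measured mitotic kinesins had a lower mean at 25 weeks than in controls, with a median log2 fold change of -0.66 and a range of -1.19 to -0.03, and 4 of them passed the test, against 7.58% of all named genes called lower. With the replicate block 3 passed. The median of all 13616 named genes was -0.02. Without the dim pair the mitotic median was -0.27, with 12 of the 13 below 0. At 18 weeks 12 of the 13 lay below 0, with a median of -0.48 (-0.39 without the dim pair), and 0 passed. Kif15, the mitotic kinesin below the filter, was at 0.35 at 25 weeks in a fit without the filter (limma adjusted p = 0.693). Kif2a, listed below among the other kinesins although it also works at spindle poles, was at 0.33 ± 0.14. Its remaining probe sets lay below 0. The 13 of 13 at 25 weeks therefore holds for this list, which was drawn with earlier results known.

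Kif18b, a plus-end motor that shortens astral microtubules, had 7.16, 6.98 and 7.97 at 25 weeks, 7.51, 7.65 and 8.0 at 18 weeks, and 8.12, 8.0 and 8.59 in controls (log2 normalized signal, replicates 1 to 3). Every array of the 25-week group lay below every control array, by a narrow margin (7.97 against 8.0), and the 18-week group reached the lowest control. The change was -0.86 ± 0.17 at 25 weeks (SE, n = 3 per group, limma adjusted p = 0.00732) and -0.28 at 18 weeks. It stayed past the threshold in each of 9 fits that left out an array, with limma adjusted p between 0.00593 and 0.0418. Here and below, leaving out either array of the dim pair gives the same change as leaving out both. The block then absorbs the other array, so the 9 fits are not all separate checks.

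Kif22, a chromokinesin that pushes chromosome arms away from the poles, had 5.02, 5.03 and 4.1 at 25 weeks, 5.17, 5.51 and 5.47 at 18 weeks, and 6.02, 5.93 and 5.77 in controls. Neither VAD group overlapped the controls. The change was -1.19 ± 0.23 at 25 weeks (SE, n = 3 per group, limma adjusted p = 0.00739) and -0.71 at 18 weeks (limma adjusted p = 0.179), and the 25-week call held in all 9 fits without an array (limma adjusted p 0.0102 to 0.0291). Its other probe sets, both of kinds that can bind several transcripts, were not called. The brightest of all 3, averaging 9.45 over the arrays against 5.33 for the one used, was at -0.22 (limma adjusted p = 0.333), and the third was at -0.50 (0.149). The promoter of Kif22 differs from the others printed above in holding TTTGAA at a second place, at position -215.

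Kif23, which bundles the central spindle for cytokinesis, had 7.11, 7.19 and 7.56 at 25 weeks, 7.07, 7.36 and 7.59 at 18 weeks, and 7.66, 7.81 and 8.55 in controls. Both VAD groups lay below all controls, by a narrow margin at 18 weeks. The change was -0.72 ± 0.17 at 25 weeks (SE, n = 3 per group, limma adjusted p = 0.0185) and -0.46 at 18 weeks. The 25-week call was lost without VAD 25 weeks replicate 1 or 3 (limma adjusted p = 0.0601 and 0.0577) and without control replicate 2 or 3 (0.0596 and 0.0599). A further probe set of Kif23 was at -1.01 (limma adjusted p = 0.0533).

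Kifc1, a minus-end motor that focuses spindle poles, had 4.47, 4.55 and 5.29 at 25 weeks, 5.21, 4.63 and 5.11 at 18 weeks, and 5.58, 5.43 and 6.05 in controls. Again neither VAD group overlapped the controls. The change was -0.92 ± 0.24 at 25 weeks (SE, n = 3 per group, limma adjusted p = 0.0246), and it did not pass without VAD 25 weeks replicate 1 or 2 (limma adjusted p = 0.0929 and 0.0839) or control replicate 1 or 2 (0.0874 and 0.0617), nor with the replicate block (0.0615). Its sole measured probe set is of a kind that can bind several transcripts, and the close paralogue Kifc5b, at -0.66 ± 0.39 on a probe set of its own, was not called. Signal of Kifc1 and Kifc5b may therefore be shared.

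**Figure D2:**
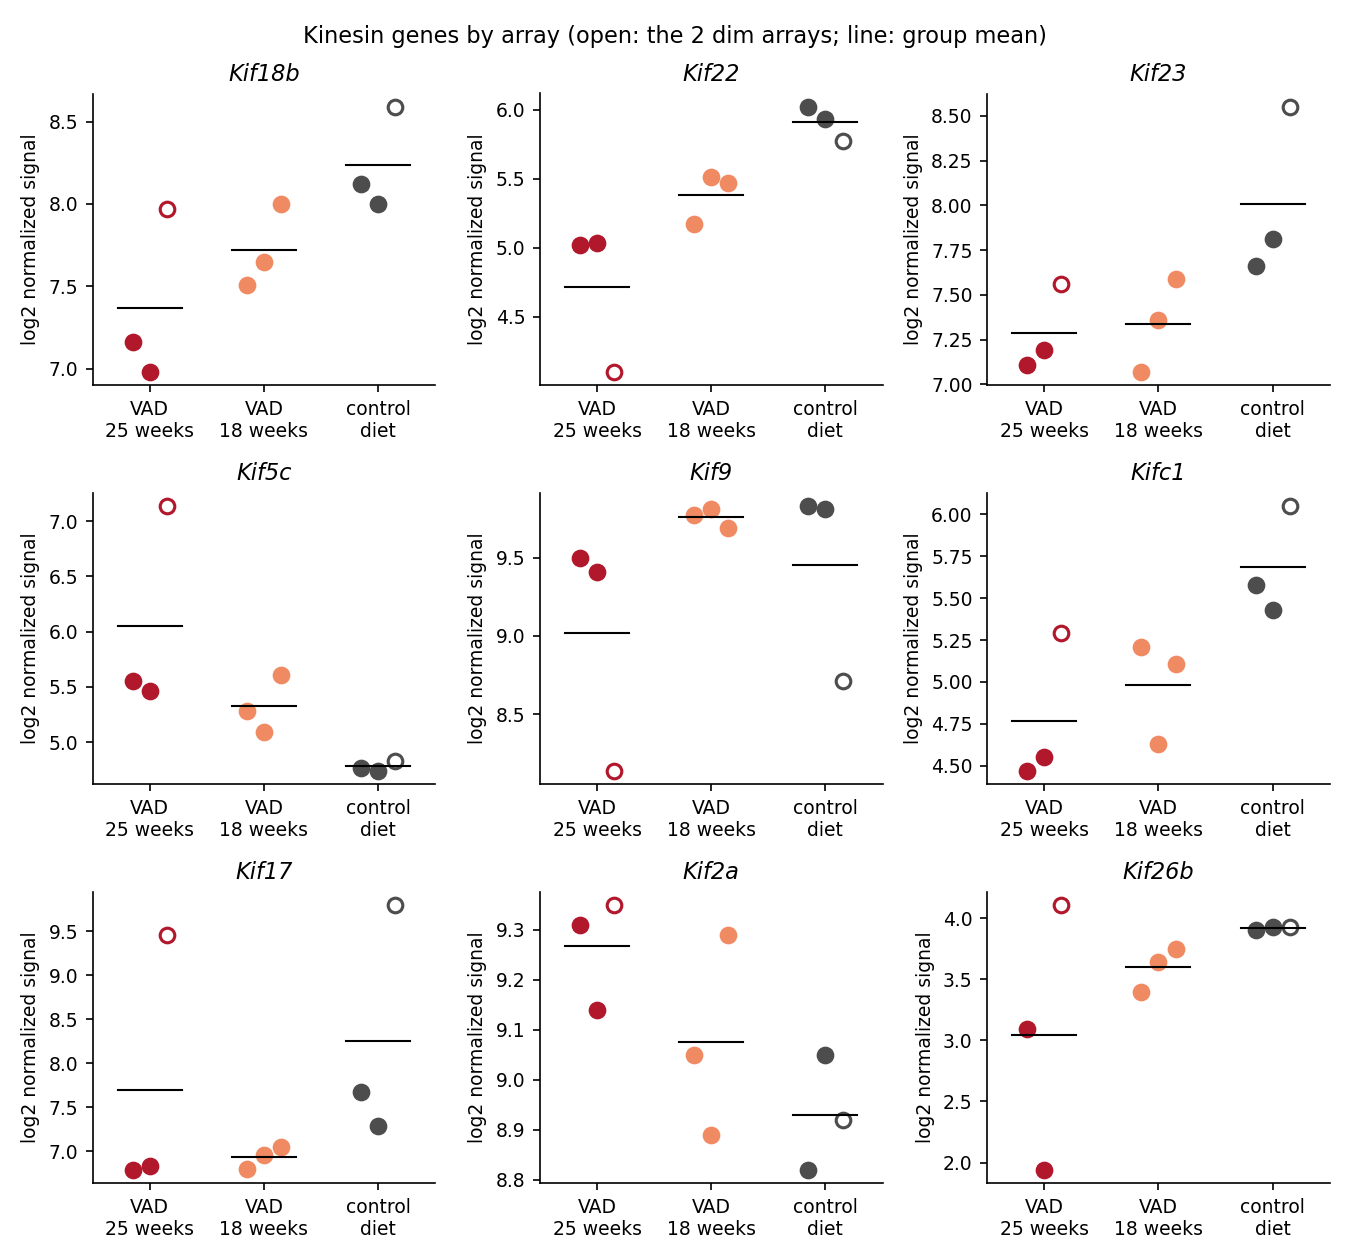
Log2 normalized signal of 9 kinesin genes on each array, with VAD at 25 weeks, VAD at 18 weeks and the control diet from left to right, open circles for the dim pair and a line for the group mean. The 25-week and control circles of Kif18b, Kif22, Kif23, Kifc1 and Kif5c do not overlap, while the dim pair sets the range of Kif9 and Kif17.

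The other mitotic kinesins did not pass at 25 weeks. Kif20b, a motor of late cytokinesis, was at -0.75 ± 0.29 by its representative probe set and at 0.03 ± 0.28 by its second. Kif2b, a microtubule depolymerase, was at -0.73 ± 0.26, and at -0.26 without the dim pair. Kif2c, the centromeric depolymerase MCAK, was at -0.62 ± 0.21 (limma adjusted p = 0.0723) with 7.86, 8.17 and 7.18 at 25 weeks, 7.54, 7.83 and 8.12 at 18 weeks, and 8.49, 8.19 and 8.4 in controls, so neither VAD group reached the controls. All 4 probe sets of Kif2c lay between -0.77 and -0.17, and without the dim pair the change of the first was -0.33. The values of Kif2c on each array, like those of Kif1c below, are given because neither VAD group was seen to overlap the controls. The margin was narrow in Kif2c, at 8.17 against 8.19. Closest to 0 were Kif11, the motor that separates the spindle poles (-0.07 ± 0.22), and Kif20a, a motor of the central spindle (-0.03 ± 0.15). Kif18a, which damps chromosome movements at metaphase and whose loss depletes germ cells in mice, was at -0.27 ± 0.17 at 25 weeks and -0.64 ± 0.18 at 18 weeks, where it had the smallest limma adjusted p of the genes by their representative probe sets, at 0.106. Kif14 and Kif4, of cytokinesis and chromosome arms, were at -0.36 ± 0.40 and -0.35 ± 0.31.

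The 2 sets of arrays that hold a 25-week and a control group share no array and can be set beside each other. Outside the dim pair the 25-week arrays were only replicates 1 and 2, with poly-A control transcripts at 30.27 and 37.87 times the median. The control arrays there were at 0.83 and 1. Diet and this array difference therefore coincide outside the dim pair, and in every 25-week value given without the dim pair. The fit with the dim pair as a block uses the same arrays. Its 25-week changes and calls draw more on them than on the dim pair, and so are not free of this coincidence. The part of the array difference in the 25-week values and calls, with the block or without the dim pair, was not tested. Within the dim pair 12 of the 13 mitotic kinesins were lower at 25 weeks, with a median difference of -0.76 on the log2 scale, and on the remaining arrays 12 of 13 were lower, with a median of -0.27. In 11 of 13 the difference was negative in both sets (84.6%), against 32.8% of all named genes. The transport kinesins had medians of -0.17 and -0.21 and the ciliary kinesins 0.18 and -0.24, and 8 of 14 and 3 of 8 were negative in both. The difference of Kif5c was positive in both sets, at 2.31 in the dim pair and 0.74 outside it.

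**Figure D3:**
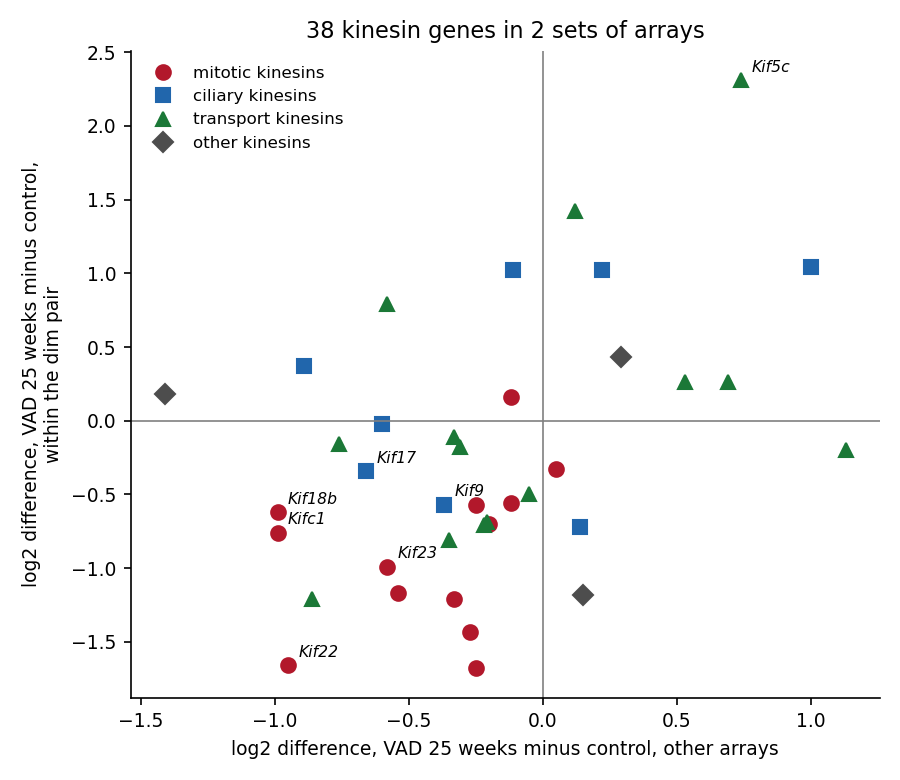
Log2 difference between VAD at 25 weeks and control for the 38 kinesin genes, within the dim pair (vertical axis, 1 array against 1) and on the other arrays (horizontal axis, means of 2 arrays against 2). Of the 13 mitotic kinesins, 11 lie below 0 on both axes, and Kif5c lies at the upper right.

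The 8 ciliary kinesins were mixed at 25 weeks, with a median log2 fold change of -0.28, 2 lower and 0 higher, against 7.58% and 9.03% of all named genes. With the replicate block 0 passed by their representative probe sets. Kif17, a homodimeric kinesin of the kinesin-2 family that in mouse male germ cells moves the CREM coactivator ACT, had 6.79, 6.84 and 9.46 at 25 weeks, 6.8, 6.96 and 7.05 at 18 weeks, and 7.67, 7.29 and 9.8 in controls. The dim pair carried by far the highest values in both groups, so the groups overlap although each 25-week array lies below the control of its own set. The change was -0.55 ± 0.16 (SE, n = 3 per group, limma adjusted p = 0.0386) and -0.49 at 18 weeks, and the 25-week call held once the dim pair was left out (0.0328). Another probe set of Kif17 had 4.22, 3.44 and 2.48 at 25 weeks, 3.98, 4.23 and 4.57 at 18 weeks, and 5.38, 4.78 and 4.63 in controls, with no overlap of either VAD group and controls, and changed by -1.55 ± 0.35 (limma adjusted p = 0.0141). Deposited signals of this set were low, from 1.49 to 37.11. The third, at -0.57, was not called with the block (limma adjusted p = 0.125). It was called once the dim pair was left out (0.0174). The call of the representative probe set was lost without VAD 18 weeks replicate 2 (limma adjusted p = 0.0577), VAD 25 weeks replicate 1 or 2 (0.135 and 0.121) and control replicate 1 or 2 (0.156 and 0.0604), and with the replicate block (0.0792).

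Kif9, a kinesin of the sperm flagellum, had 9.5, 9.41 and 8.14 at 25 weeks, 9.77, 9.81 and 9.69 at 18 weeks, and 9.83, 9.81 and 8.71 in controls. Outside the dim pair the 25-week arrays were below the controls, and within it the 25-week array was below the control array. The change was -0.44 ± 0.11 at 25 weeks (SE, n = 3 per group, limma adjusted p = 0.0231) and -0.10 at 18 weeks. Limma's adjusted p rose above the threshold when any 25-week array (0.0551, 0.0889 and 0.0613 without replicates 1, 2 and 3) or any control array (0.0677, 0.0605 and 0.0626) was left out, and it was 0.0597 without the dim pair and 0.0503 with the replicate block. Kif27, a ciliary relative of the Hedgehog regulator Kif7, was at -0.41 ± 0.16 and not called with the block (limma adjusted p = 0.111). Leaving out the dim pair gave -0.60 and a call (0.0267).

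Kif3a and Kif3b are the motor subunits of heterotrimeric kinesin-2, which drives intraflagellar transport, and Kifap3 is its accessory subunit. All 4 probe sets of Kif3b were below 0 at 25 weeks, from -0.91 to -0.47, and 2 were called. The called probe set with the smaller error had 7.65, 7.56 and 7.85 at 25 weeks, 8.27, 8.03 and 8.04 at 18 weeks, and 8.46, 8.47 and 8.13 in controls, which did not overlap at 25 weeks (-0.66 ± 0.16, limma adjusted p = 0.0168). The brightest, at -0.47 ± 0.23, was not called with the block (limma adjusted p = 0.188). All 4 were called once the dim pair was left out, from -1.07 to -0.86. Within the dim pair the brightest was higher at 25 weeks (0.37), as was another that was not called (0.40). The called probe sets were lower there (-0.27 and -1.02). The probe sets of Kif3a disagreed. The one that represents the gene was at -0.15 ± 0.16 and a second at -0.07 ± 0.15, and the remaining 2 rose by 1.30 ± 0.27 and 0.84 ± 0.24 (limma adjusted p = 0.0103 and 0.0383). The first of these 2 had 5.24, 5.47 and 3.8 at 25 weeks, 5.17, 4.72 and 5.04 at 18 weeks, and 4.12, 4.34 and 2.15 in controls. Its deposited signals ran from 0.8942, in control replicate 3, to 90.94. The rise of the second was not called without the dim pair (limma adjusted p = 0.108) or with the replicate block (0.0862). A direction for Kif3a therefore depends on the probe set. Kifap3 rose by 0.66 ± 0.15 (limma adjusted p = 0.0159).

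The remaining ciliary kinesins lay above 0 at 25 weeks without passing. Kif6, a kinesin of motile cilia, was at 1.01 ± 0.48, with its 25-week arrays above all controls, and at 0.51 ± 0.27 on its other probe set. Kif24, which in human cells holds back cilium formation at the mother centriole, was at 0.49 ± 0.21, and Kif7, a regulator of Hedgehog signalling, at 0.27 ± 0.44 with the block and at -0.11 without the dim pair.

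Of the 14 transport kinesins, 1 rose at 25 weeks and 0 fell, against 9.03% and 7.58% of all named genes, which is near the background, with a median log2 fold change of -0.23 and a range of -0.98 to 1.26. Kif5c, a conventional kinesin heavy chain known mainly from neurons, had 5.55, 5.46 and 7.14 at 25 weeks, 5.28, 5.09 and 5.61 at 18 weeks, and 4.77, 4.74 and 4.83 in controls. All 6 VAD arrays lay above all 3 controls. The change was 1.26 ± 0.31 at 25 weeks (SE, n = 3 per group, limma adjusted p = 0.019) and 0.83 ± 0.33 at 18 weeks (limma adjusted p = 0.234). The 25-week array of the dim pair was the highest. Without the dim pair the change was 0.74 at 25 weeks (limma adjusted p = 0.0592) and 0.57 at 18 weeks. Leaving out VAD 25 weeks replicate 3 or control replicate 3 alone gave the same change at 25 weeks, with limma adjusted p of 0.0599 and 0.0515.

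The other conventional heavy chains, Kif5a and Kif5b, were at -0.38 ± 0.28 and -0.37 ± 0.30 at 25 weeks by their representative probe sets. The remaining probe sets of Kif5b were at 1.04, 0.80, 0.44 and -0.10, and none was called with the block. The first of these was called at 1.49 without the dim pair (limma adjusted p = 0.015), so a direction for Kif5b depends on the probe set. Kif1c, a vesicle motor, had the lowest value of the transport group, -0.98 ± 0.31 (limma adjusted p = 0.0577), with 3.39, 3.38 and 2.95 at 25 weeks, 3.82, 3.86 and 3.79 at 18 weeks, and 4.0, 4.49 and 4.16 in controls. Neither VAD group overlapped the controls, and the second probe set of Kif1c was at -0.77 ± 0.50. Deposited signals of the first were low, from 2.801 to 17.13. Kif13b, a motor of membrane cargo, was at -0.56 ± 0.20 with the block (limma adjusted p = 0.0786) and at -0.76 without the dim pair (0.0331). Kif1b, which carries mitochondria and synaptic vesicle precursors, was at 0.69 ± 0.26 by its representative probe set with the block (limma adjusted p = 0.0962) and at 1.13 without the dim pair (0.00437), but another of its 6 probe sets was at -0.55 with the block and was called at -0.77 without the dim pair (limma adjusted p = 0.0151). Kifc2 and Kifc3, minus-end transport motors, were at 0.55 ± 0.30 and 0.44 ± 0.18, and neither passed.

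Of the 5 kinesins outside these roles, 3 were measured and 0 passed. Kif2a, a microtubule depolymerase of spindle poles and neurons, had 9.31, 9.14 and 9.35 at 25 weeks, 9.05, 8.89 and 9.29 at 18 weeks, and 8.82, 9.05 and 8.92 in controls, and its 25-week arrays lay above all controls (0.33 ± 0.14, limma adjusted p = 0.128). The remaining 3 probe sets of Kif2a were between -0.18 and -0.04. Kif26b had 3.09, 1.94 and 4.11 at 25 weeks, 3.4, 3.64 and 3.75 at 18 weeks, and 3.9, 3.93 and 3.93 in controls. Its 25-week arrays spread on either side of the controls (-0.88 ± 0.44, limma adjusted p = 0.203).

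**Figure D4:**
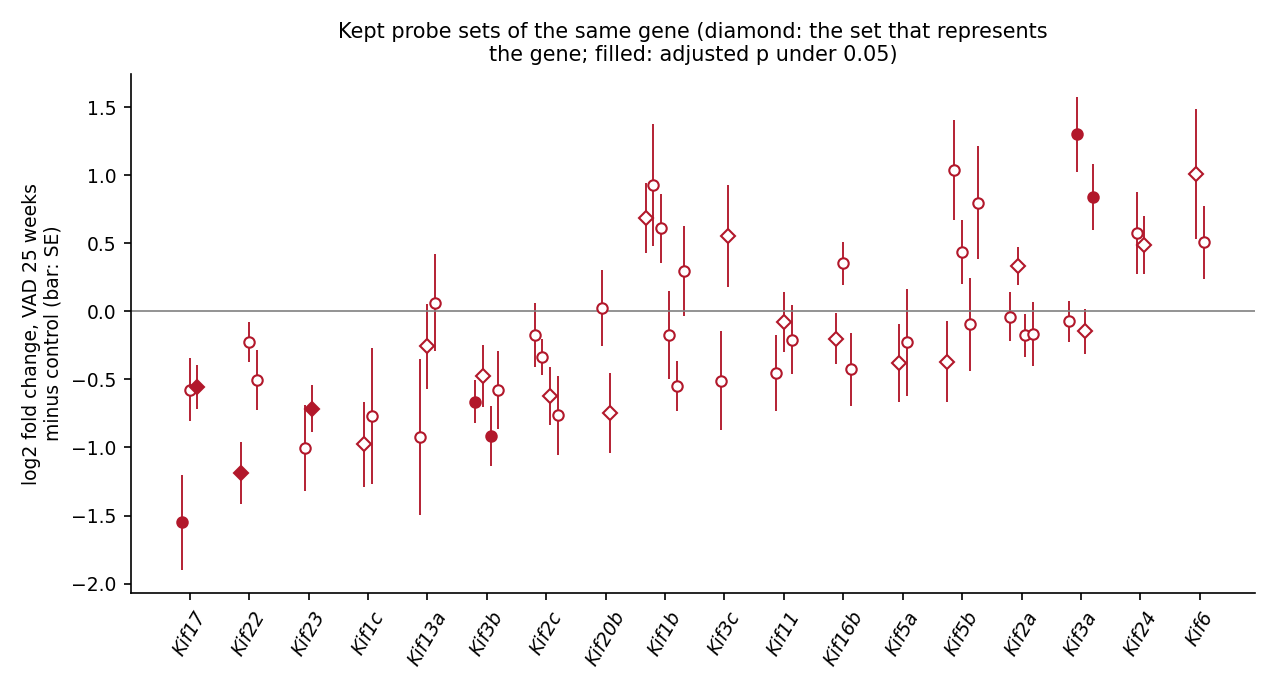
Log2 fold change at 25 weeks against control for every kept probe set of the 18 kinesin genes with more than 1, with standard errors (n = 3 arrays per group), diamonds for the probe set that represents the gene and filled symbols for limma adjusted p under 0.05. The sets of Kif17, Kif22, Kif23, Kif2c and Kif3b lie on 1 side of 0, and those of Kif1b, Kif3a and Kif5b lie on either side.

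Of these 18 genes, 10 had all probe sets on the same side of 0 at 25 weeks and 8 did not. The widest spans were in Kif1b (-0.55 to 0.93 over 6 probe sets), Kif3a (-0.15 to 1.30 over 4) and Kif5b (-0.37 to 1.04 over 5). Of the 5 genes with a called probe set, 0 had every probe set called.

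The directions above are relative to the normalized arrays. On the deposited scale the median of all kept probe sets at 25 weeks was 0.93, and against this shift the mitotic kinesins had a median of 0.32, the ciliary kinesins 0.66 and the transport kinesins 0.74. With median centring the median of all was 0.08, against -0.52 for the mitotic, -0.18 for the ciliary and -0.1 for the transport kinesins. The calls of Kif18b, Kif22 and Kif5c held there, and those of Kif23 (limma adjusted p = 0.0711), Kifc1 (0.0698), Kif9 (0.171) and Kif17 (0.117) did not. On the deposited scale Kif18b (0.10), Kif23 (0.29), Kifc1 (0.09), Kif9 (0.50) and Kif17 (0.38) lay above 0 without passing, Kif22 was at -0.06, and all 6 lay below the shift of 0.93.

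**Figure D5:**
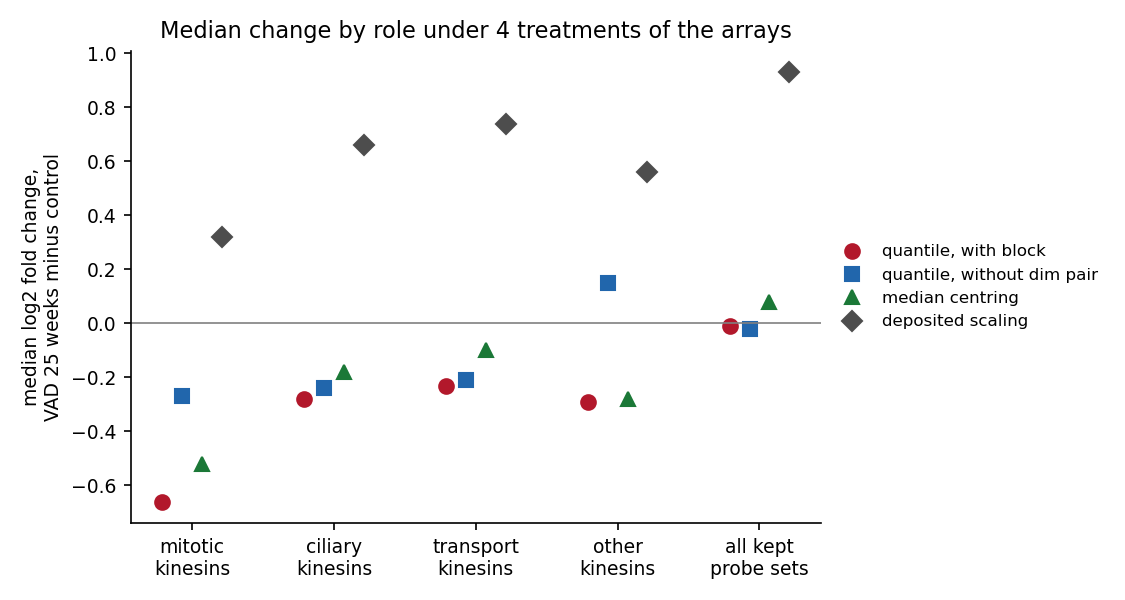
Median log2 fold change at 25 weeks against control of each kinesin role and of all kept probe sets (27022 on the quantile-normalized scale) under 4 treatments of the arrays. The mitotic median lies below that of all probe sets in each treatment, at -0.66, -0.27, -0.52 and 0.32 against -0.01, -0.02, 0.08 and 0.93. So do the ciliary (-0.28, -0.24, -0.18 and 0.66) and transport medians (-0.23, -0.21, -0.1 and 0.74), which are close to the mitotic one without the dim pair.

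The genes that work with kinesins were taken as 3 lists. Of 33 measured partners of the mitotic spindle, 7 were lower and 1 was higher at 25 weeks, with a median of -0.29 and 21 below 0. Over all 13616 named genes 7.58% were lower and 9.03% higher. With the replicate block 5 partners were lower and 1 higher. Aurka (-0.73 ± 0.11) and Plk1 (-1.04 ± 0.19), kinases that control spindle assembly and mitotic kinesins, fell, and Mad2l1, a spindle checkpoint protein, rose by 1.18 ± 0.17 (limma adjusted p = 0.00259, 0.00591 and 0.0018). At 18 weeks Ccnb2, a mitotic cyclin, fell by 0.66 ± 0.14 (limma adjusted p = 0.0467). Cenpe, the kinetochore kinesin whose symbol lies outside the family rule, was at -0.75 ± 0.27 at 25 weeks (limma adjusted p = 0.0882) and is named after its value was seen.

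Of 14 kinesin light chains and cargo adaptors, 2 rose and 1 fell at 25 weeks, with a median of 0.28, and with shares of 9.03% and 7.58% over all named genes these counts lie near the background. Klc4, a light chain of conventional kinesin, fell by 1.04 ± 0.18 (limma adjusted p = 0.00479), and Ktn1, a kinesin receptor of the endoplasmic reticulum, rose by 0.84 ± 0.23 (0.033), beside Kifap3 above. With the replicate block Ktn1 was not called (limma adjusted p = 0.0682). Of 22 genes of intraflagellar transport, which kinesin-2 powers, 4 rose and 2 fell, with a median of 0.08, against 9.03% and 7.58% of all named genes. Dync2li1 (0.68 ± 0.13), a subunit of the returning dynein motor, and Wdr19 (0.74 ± 0.16) and Wdr35 (0.48 ± 0.11), parts of the returning train, were higher (limma adjusted p = 0.00741, 0.0112 and 0.0178). The 2 that fell, named after their values were seen, were Ift43 (-0.67) and Ift22 (-0.61), parts of the same transport machinery (limma adjusted p = 0.0278 and 0.0308), and 10 of the 22 lay below 0. With the replicate block Ift22 was not called (0.0503).

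Markers of other cells moved in the 25-week comparison with controls, in which 9.03% of all named genes were called higher and 7.58% lower. Of 15 measured Sertoli cell markers, 9 were higher (6 with the replicate block) and 0 lower at 25 weeks, and their summed signal was 1270 to 2620 at 25 weeks, 976 to 3170 at 18 weeks and 322 to 531 in controls, with Sox9 and Amh below the filter. Of 4 Leydig cell markers 1 was higher, with sums of 272 to 301, 119 to 530 and 32.3 to 132 in the same order. Of 7 macrophage markers 5 were higher (3 with the replicate block), with sums of 264 to 411, 134 to 217 and 131 to 270. Of 14 spermatid markers 5 were lower (3 with the replicate block) and 0 higher, with sums of 5010 to 15300, 8640 to 13700 and 7520 to 17200, and of 12 spermatocyte markers 4 were higher and 2 lower. Of 6 measured markers of undifferentiated spermatogonia 1 was higher (Id4, 1.15) and 0 lower. Of 9 markers of differentiating spermatogonia 2 were higher (Kit, 1.34, and Tex101, 1.24) and 1 lower (Dmrtb1, -1.19). The part of all these cells in the kinesin values, those of the flagellar kinesins Kif9 and Kif17 and of the mitotic kinesins included, was not tested.

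Between 25 and 18 weeks limma called 0 of the 76 kinesin probe sets and 0% of the array. Its unadjusted p was under 0.05 for 8 of the 76 kinesin probe sets and for 3119 of all 27022. The medians of the difference were -0.15 for mitotic, -0.27 for ciliary, 0.01 for transport and 0.04 for other kinesins. Kif18b was at -0.59 (limma adjusted p = 0.24) and Kif5c at 0.44 (0.654). Without the dim pair 0 kinesin probe sets were called there, against 1.68% of all (0.629% higher and 1.05% lower).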

How the data were processed

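RNA of spermatogonia preparations was measured on 9 Affymetrix mouse arrays, 3 per group. The deposited values are linear signal intensity values made with MAS5, per the submitters' processing notes, and the scaling target is not given in the sources used here. After 64 control probe sets were left out, log2(intensity + 3.259), the pseudocount being the 25th percentile of all deposited signals, was quantile normalized. The 27022 probe sets whose mean reached the 40th percentile were kept.

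Limma 3.58.1 in R 4.3.3 (lmFit, contrasts and eBayes with a trend) was fitted to all 9 arrays with group and the dim pair as terms, which leaves 5 residual degrees of freedom. The dim pair is the 2 arrays whose trimmed mean was under 0.5 of the median array. P-values were adjusted by Benjamini-Hochberg over all kept probe sets, with a threshold of 0.05. A gene is represented by its brightest kept probe set among those least open to binding several transcripts; other sets were used only where no such set was kept. By the naming rule, values on all arrays are given for kinesins past the threshold and, in a role with none, for the 2 with the smallest p, and up to 3 called members are named of each partner list. Kif2c and Kif1c were added after their values were seen. Promoters were read from a RefSeq table, and motifs were sought on both strands. Deviations from the group means correlated between 25-week and control arrays of the same replicate number at 0.52, 0.52 and 0.69. The replicate block used the numbers, which nothing in the labels explains, to tie arrays across all 3 groups, the 18-week arrays included. Number 3 is the dim pair in the 25-week and control groups, and deviations sum to 0 within a group. The dim pair alone can therefore make numbers 1 and 2 correlate, so their pairing is not shown. Of the 9 arrays, 3 correlated best with their own number in both other groups. With 18-week arrays the correlations were 0 to 0.08. The fit was tested on simulated data. The members, lists and block were chosen with earlier results of these data known.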

Additional observations from a re-analysis of the deposited data

How the results depend on the processing

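Of the 12 kinesin probe sets called at 25 weeks, 8 were called again without the dim pair, 6 with median centring and 8 with a replicate block, and all 12 kept their sign under these alternatives, while 5 of 12 kept it on the deposited scale. The count of kinesin calls at 25 weeks was 0 with group alone, 19 on the deposited scale (19 higher and 0 lower), 26 with array weights, and 5 to 17 when 1 array was left out (5 without VAD 25 weeks replicate 1 or 2, 6 without control replicate 1 or 2, 17 without VAD 25 weeks replicate 3, 16 without control replicate 3). At 18 weeks it was 2 without the dim pair, 1 with array weights, 2 with the dim and bright pairs as blocks (chosen after seeing the data) and 0 to 2 without 1 array, against 0. Between 25 and 18 weeks it was 3 on the deposited scale, 7 with array weights and 2 with both blocks, against 0, and 0 in every fit without 1 array. Over all probe sets the 25-week count of 4017 was 0 with group alone, 10578 on the deposited scale (10571 higher and 7 lower), 2391 with no variance trend, 6592 with array weights and 1788 to 4159 without 1 array. The 18-week count of 396 was 0 with group alone, 1078 without the dim pair, 134 on the deposited scale, 0 with no trend, 1086 with array weights, 964 with both blocks and 37 to 1031 without 1 array. Between 25 and 18 weeks the count of 0 was 453 without the dim pair, 1806 on the deposited scale, 1550 with array weights, 1707 with both blocks and 0 to 395 without 1 array. On the deposited scale Kif18b (0.10), Kif23 (0.29), Kifc1 (0.09), Kif9 (0.50) and Kif17 (0.38) turned positive at 25 weeks. With median centring 2800 probe sets were higher and 817 lower at 25 weeks, kinesins 5 and 3, against 2308 and 1709, kinesins 3 and 9. With a replicate block the calls of Kif9, Kifc1, the representative set of Kif17 and 1 set of Kif3a were lost, and the counts were 2599 at 25 weeks and 19 at 18 weeks over all probe sets and 8 for kinesins at 25 weeks. The causes of these differences were not tested. Leaving out either array of the dim pair gave the same changes as leaving out both.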
